A study of Mus musculus with 12 samples.

Results

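The 41 genes described here encode proteins that license replication origins, unwind and copy DNA, supply deoxynucleotides, drive cells from G1 into S phase and rebuild chromatin behind the fork. They were chosen by name, as a list of mouse symbols, with earlier results of these data known. All 41 were found among the 29522 genes of the files. All 41 were also among the 13511 genes that were tested, those with a mean of at least 1 FPKM (fragments scaled to the length of the gene and the size of the library) in at least 1 of 4 groups. Of these, 35 reached that mean in every group. The other 6, which were Cdc6, Mcm10, Gins1, Pola1, Tyms and Chaf1b, were below it in the group given both compounds and passed through the other groups, or in the case of Chaf1b through vehicle and ILA alone.

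Naive CD4+ T cells were isolated from the spleens of wild-type C57BL/6J mice, activated through CD3 and CD28, and cultured under conditions that drive Th17 differentiation, the helper T cell fate marked by IL-17. The cells received the vehicle control, ILA at 200 uM, GSK805 at 0.5 uM, or GSK805 and ILA together at those doses. ILA was taken to mean indole-3-lactic acid, which gut bacteria make from tryptophan, and GSK805 inhibits RORγt, the transcription factor that directs the Th17 fate. Each group had 3 RNA-seq libraries labelled as biological replicates, and as the labels name neither animals nor cultures, nor how long the cells were treated, the p-values measure only the spread between these libraries.

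DNA replication starts in G1, when Cdc6 and Cdt1 load the ring of 6 MCM proteins onto origins. At the start of S phase, Cdc45 and the GINS complex join the ring to form the active helicase, a primase lays down primers, the clamp loader RFC places the PCNA ring, and the polymerases copy both strands. In T cells that have just been activated, E2F factors and cyclin E switch these genes on together as the cells leave quiescence and divide rapidly.

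The libraries held 17.8 to 23.5 M reads, recovered from the FPKM values with reference gene lengths. Between 98.6% and 98.8% of the values in a library came within 0.1 of a whole read. A read in a gene of 1 kilobase was worth 0.0426 to 0.0560 FPKM. Gins1, with the fewest reads of the 41 genes, rested on 19 to 65 reads a library, and Pcna, with the most, on 2822 to 4665. The defining T cell genes were present in every library: Cd3e ranged from 18.7 to 40.5 FPKM and Cd4 from 38.9 to 121 FPKM. The 5 T cell markers summed to 211 FPKM with vehicle, 404 with ILA, 217 with GSK805 and 356 with both, and the 6 Th17 markers to 1422, 463, 406 and 199 FPKM. Markers of B cells summed to at most 2.83 FPKM and those of CD8 T and NK cells to at most 5.23 FPKM in any library. Myeloid markers summed to 6.77 to 12.5 FPKM, nearly all of it Cd68 and Csf1r, with Lyz2, Adgre1 and Itgam each at most 0.848 FPKM. Stromal and epithelial markers summed to 15.3 to 31.4 FPKM, nearly all of it Epcam and Pecam1, with Col1a1 at most 0.0939 FPKM, and both of these sums were higher with ILA. Within the myeloid sum, Cd68 averaged 3.75 FPKM with vehicle and 8.94 with ILA alone, but Csf1r went the other way, 3.46 and 2.33. Listed markers that were not matched in the files were not analysed here. ILA replicate 2 held 41.5 FPKM of erythroid and platelet transcripts, when the highest other library held 0.1 FPKM. The part of these differences in the results below was not tested. In bulk RNA, fewer cycling cells and less RNA of these genes per cycling cell cannot be told apart.

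The promoters of 4 genes that fell when GSK805 and ILA were combined are printed because they carry an E2F site, the element through which E2F factors switch replication genes on. The windows come from RefSeq (GRCm38.p6), span the annotated start, and are written 5′ to 3′ in the direction of the gene. Capitals mark a match on either strand to 1 of the 4 spellings searched, TTTCCCGC, TTTCGCGC, TTTGCCGC and TTTGGCGC.
Cdc6, chr11:98907901-98908200, plus strand: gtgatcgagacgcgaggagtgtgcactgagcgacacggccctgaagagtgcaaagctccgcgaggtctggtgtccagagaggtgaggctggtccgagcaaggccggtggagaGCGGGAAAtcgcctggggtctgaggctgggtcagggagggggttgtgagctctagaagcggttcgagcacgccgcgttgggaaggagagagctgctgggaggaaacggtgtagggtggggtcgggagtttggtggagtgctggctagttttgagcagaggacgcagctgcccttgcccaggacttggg
Mcm5, chr8:75109259-75109558, plus strand: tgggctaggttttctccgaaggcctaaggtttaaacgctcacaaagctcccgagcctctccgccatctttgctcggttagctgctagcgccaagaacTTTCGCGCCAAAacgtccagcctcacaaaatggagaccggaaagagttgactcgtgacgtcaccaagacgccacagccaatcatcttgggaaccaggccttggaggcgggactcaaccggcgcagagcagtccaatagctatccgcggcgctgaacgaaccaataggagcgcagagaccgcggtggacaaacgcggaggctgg
Mcm7, chr5:138171834-138172133, minus strand: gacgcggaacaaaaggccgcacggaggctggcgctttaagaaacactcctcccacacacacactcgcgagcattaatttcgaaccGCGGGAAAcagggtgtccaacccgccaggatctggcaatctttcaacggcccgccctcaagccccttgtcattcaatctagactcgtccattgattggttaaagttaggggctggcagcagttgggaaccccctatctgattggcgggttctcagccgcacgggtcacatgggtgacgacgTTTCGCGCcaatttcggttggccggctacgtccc
Mcm3, chr1:20820263-20820562, minus strand: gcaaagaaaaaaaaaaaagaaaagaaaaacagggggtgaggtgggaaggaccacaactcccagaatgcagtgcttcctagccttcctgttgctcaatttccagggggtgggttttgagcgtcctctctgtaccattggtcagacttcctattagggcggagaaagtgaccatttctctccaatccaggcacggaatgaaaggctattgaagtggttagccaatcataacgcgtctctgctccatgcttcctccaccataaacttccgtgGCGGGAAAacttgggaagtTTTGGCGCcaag

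The Cdc6 window held 1 match and the other 3 windows held 2 each, with the 2 matches in Mcm5 overlapping on opposite strands. RefSeq windows were found for 33 of the 41 genes (40 windows). Of these genes, 13 (39.4%) had an E2F spelling in a window, which came to 32.5% of their windows, beside 2.26% of the 32851 windows of all genes. Mcm6, Cdt1, Rfc3, Lig1, Uhrf1 and E2f2 were among the 13. The CHR element, searched as TTTGAA or TTCGAA on both strands, occurred in 20% of the windows of these genes and 19.2% of all windows, and the CCAAT box, searched as CCAAT on both strands, in 60% and 37.4%. Among the genes that were lower with both compounds than with vehicle, 8 of the 16 with a window held an E2F spelling, as did 5 of the 15 that did not pass and 0 of the 2 that were higher. A match describes the letters of the window and does not show binding.

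Replication genes were lowest in the cells given both compounds. Against vehicle, 21 of the 41 genes fell with GSK805 and ILA together, when 20.3% of all genes tested fell, and 3 rose, when 31.8% of all genes rose. The 21 include Cdc6, Mcm10 and Gins1, whose means with both (0.865, 0.905 and 0.677 FPKM) lay below the filter of 1 FPKM. These genes were tested only through groups where they were higher, so the filter favoured a fall. The median difference of the 41 was -0.27 on the scale of log2(FPKM + 1), beside 0.06 for all genes tested. Of the 41 differences 32 were below 0, as were 5799 of those of all 13511 genes. Of the 21 falls, 20 kept their call under every alternative in which they were tested, the exception being Gins4. The combined group had the lowest mean for 30 of the 41 genes, vehicle for 9, ILA for 2 and GSK805 for 0. The lowest group was not counted over all genes. Differences are limma estimates, folds are 2 to the power of those differences, and a gene was called where its p-value, adjusted by the Benjamini-Hochberg method over all genes of the comparison, was below 0.05.

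With each compound alone the counts lay nearer to those of all genes or below them. With ILA alone, 12 of the 41 genes rose (33.9% of all genes rose) and 10 fell (24.0% of all genes fell), so in the main fit both shares lay near those of all genes. The split rested on the scaling: 5 rose and 15 fell under quantile normalization, 3 and 12 under median centring, and 4 and 13 with GC and length trends removed. Without ILA replicate 2, the library with the erythroid transcripts, 7 rose and 8 fell, and without vehicle replicate 3, 8 rose and 9 fell. Under those 3 scalings the median of all genes moved from 0.06 to -0.03, -0.07 and -0.03, and the share of all calls that were rises from 58.6% to 46.3%, 41% and 44.8%. Of the 13511 genes tested, 3590, 3281 and 3529 then rose with ILA, beside 4582 in the main fit. Falls with ILA then numbered 4172, 4722 and 4352 of all genes, beside 3236. For both compounds against vehicle the median of all genes moved from 0.06 to -0.02, -0.07 and -0.03, and the 41 genes then had 28, 30 and 31 falls and 1 rise each time. Falls among all 13511 genes grew as well, from 2738 to 3618, 4440 and 3973, and rises went from 4295 to 3314, 2983 and 3257. With GSK805 alone, 2 genes rose (15.7% of all genes) and 1 fell (7.08% of all genes), and the counts under the 3 scalings were 0 rises with 2, 3 and 2 falls. Of all 13511 genes, 1326, 1129 and 1264 then rose and 1045, 1622 and 1421 fell.

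**Figure D1:**
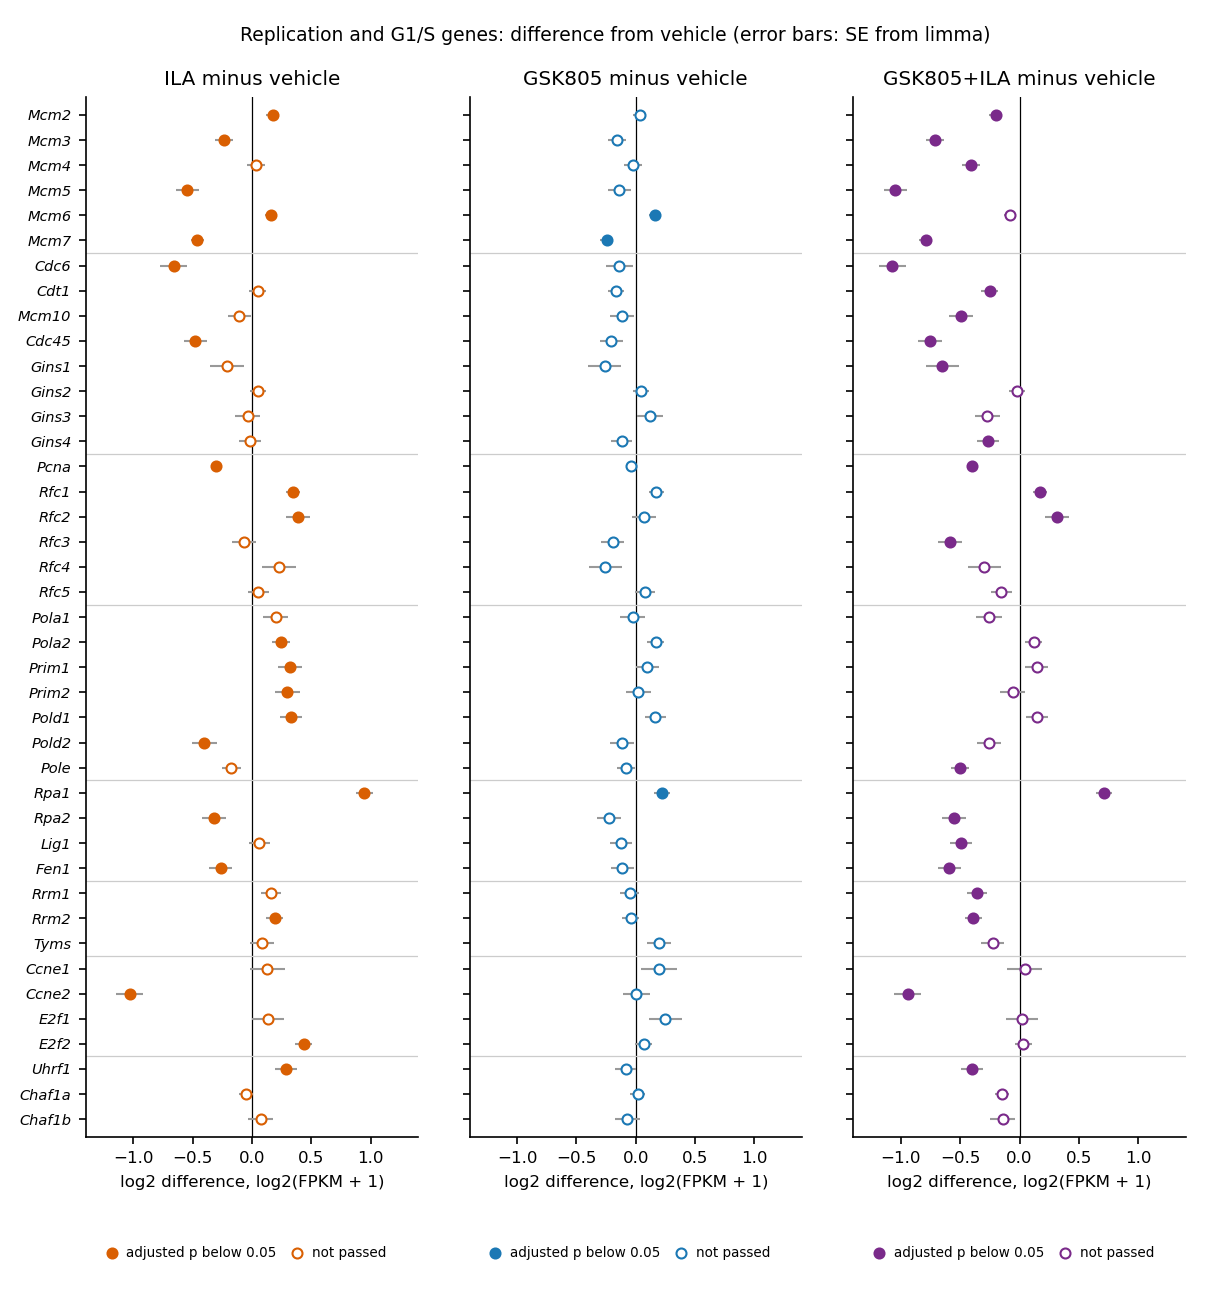
Difference from vehicle of each of the 41 genes on the scale of log2(FPKM + 1), in panels for ILA, GSK805 and both, with genes in the order of their roles (grey lines separate roles) and bars showing the SE. Filled points have an adjusted p below 0.05: 22 genes with ILA, 3 with GSK805 and 24 with both, of which 21 lie left of 0.

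The combined group was lower than either single group as well. Against GSK805 alone, 22 of the 41 genes were lower (17.5% of all genes) and 1 was higher (22.0% of all genes), with a median difference of -0.24 beside 0.02 for all genes. Against ILA alone, 21 were lower (8.64% of all genes) and 0 were higher (9.92% of all genes), with a median of -0.30 beside 0.02. At an unadjusted p below 0.05 limma had 0 higher and 30 lower in that comparison, and voom on the recovered reads called 0 higher and 23 lower. Neither count was made over all genes, so the shares above are not their background. Of the calls against ILA, 13 of 21 were kept under every alternative, beside 20 of 21 falls against vehicle and 18 of 22 against GSK805, and without ILA replicate 1 the genes lower than with ILA numbered 14. In all, 15 genes were lower than in both single groups, namely the 6 MCM genes, Cdc6, Mcm10, Rfc3, Pole, Lig1, Fen1, Rrm1, Rrm2 and Uhrf1. The same count was not made over all genes. Cdc6 and Mcm10, called in both comparisons, passed the filter only through groups where they were higher. So did Tyms, called against GSK805, and Pola1, called against ILA. Against ILA the call of Mcm10 was lost without ILA replicate 1 or 2 or combined replicate 3 (adjusted p 0.0611 to 0.0779) or with only the groups compared in the fit (0.0808), as was that of Pole (0.0707), and that of Fen1 without vehicle 3, any 1 ILA library, GSK805 2 or combined 1 or 2 (adjusted p 0.05 to 0.130) or with no filter on low values (0.0995) or no trend and robust moderation (0.0513). Against GSK805 the calls of Rrm1 and Uhrf1 were lost without GSK805 replicate 2 or combined replicate 3 (adjusted p 0.0517 to 0.0602). The 2 comparisons share the combined libraries.

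**Figure D2:**
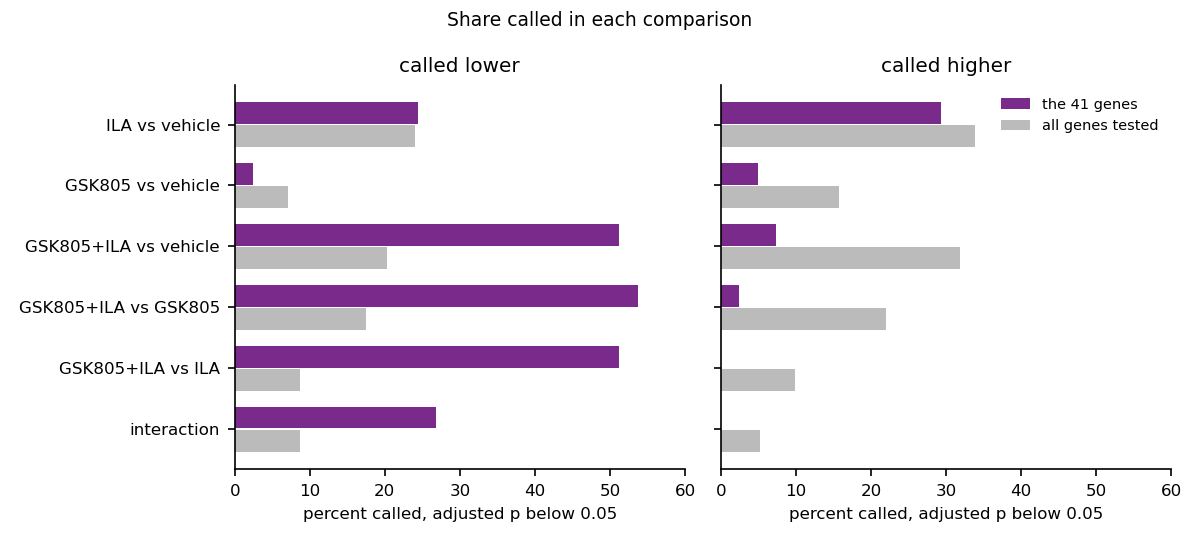
Percent of the 41 genes (purple) and of all 13511 genes tested (grey) called lower (left) or higher (right) in each comparison, at an adjusted p below 0.05. In the 3 comparisons of the combined group, 51.2%, 53.7% and 51.2% of the 41 genes were lower, beside 20.3%, 17.5% and 8.64% of all genes.

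The MCM genes encode the 6 subunits of the ring that unwinds DNA. With both compounds 5 of the 6 fell against vehicle, and all 6 were lower than with GSK805 alone and than with ILA alone. Mcm5 read 17.6, 21.0 and 19.1 FPKM with vehicle, 11.98, 14.5 and 12.1 with ILA, 16.1, 17.4 and 18.5 with GSK805, and 9.62, 9.12 and 7.64 with both. The 3 combined libraries were the lowest of the 12, the ILA libraries came next, and the vehicle and GSK805 libraries overlapped. Mcm5 fell 2.07-fold with both compounds (log2 difference -1.05, SE 0.10, adjusted p = 4.2e-06) and 1.46-fold with ILA (-0.54, SE 0.10, adjusted p = 0.00049).

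Mcm7 fell in all 3 treated groups. It read 21.1, 22.3 and 20.5 FPKM with vehicle, 16.4, 18.2 and 18.9 with GSK805, 15.5, 14.9 and 15.2 with ILA, and 11.4, 11.9 and 12.4 with both, so that no 2 groups overlapped. The folds against vehicle were 1.19 with GSK805 (log2 difference -0.25, SE 0.06, adjusted p = 0.00886), 1.38 with ILA (-0.46, SE 0.06, adjusted p = 2.6e-05) and 1.73 with both (-0.79, SE 0.06, adjusted p = 4.4e-07). It was the only one of the 41 called lower with GSK805 alone in the main fit, and that call was kept under every alternative. Cdt1 was called lower there under each of the 3 scalings (adjusted p 0.0243 to 0.0357) and Pcna under median centring (0.0481). Cdc45 was called lower without vehicle replicate 1 (0.00785) and Rpa2 without GSK805 replicate 2 (0.0439).

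Mcm3 and Mcm4 fell with both compounds too. Mcm3 read 20.3, 22.6 and 20.8 FPKM with vehicle and 12.9, 12.1 and 12.6 with both, a 1.64-fold fall (log2 difference -0.71, SE 0.07, adjusted p = 1.2e-05). Its fall with ILA was 1.18-fold (-0.24, SE 0.07, adjusted p = 0.0181) and was lost without vehicle replicate 2, ILA replicate 1 or ILA replicate 2 (adjusted p 0.0636 to 0.0717). Mcm4 averaged 14.8 ± 1.24 FPKM (SD, n = 3) with vehicle, 15.2 ± 0.635 with ILA, 14.5 ± 0.162 with GSK805 and 10.9 ± 1.13 with both. Only the combined group of Mcm4 stood apart from vehicle, by 1.33-fold (-0.41, SE 0.07, adjusted p = 0.00071).

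Mcm2 and Mcm6 went the other way with ILA alone. Mcm2 read 7.17, 7.76 and 6.95 FPKM with vehicle, 8.19, 8.84 and 8.10 with ILA, 7.14, 7.60 and 7.71 with GSK805, and 6.31, 6.31 and 6.00 with both. The ILA libraries were the highest and the combined libraries the lowest. Its difference with ILA was 0.18 (SE 0.05, adjusted p = 0.0167), but was not called under any of the 3 scalings and changed sign to -0.03 with GC and length trends removed (adjusted p = 0.597), nor was it called without vehicle replicate 3 or ILA replicate 2 (adjusted p 0.0661 and 0.0697). Its fall with both was 1.15-fold (-0.20, SE 0.05, adjusted p = 0.00906). Mcm6 read 18.0, 19.2 and 18.4 FPKM with vehicle, 20.8, 21.6 and 20.2 with ILA, 20.6, 21.6 and 20.4 with GSK805, and 18.6, 17.1 and 16.7 with both. The 2 single groups lay above the other 2. Mcm6 was 1.12-fold higher than vehicle with ILA (0.16, SE 0.05, adjusted p = 0.0140) and with GSK805 (0.16, SE 0.05, adjusted p = 0.0350). The first call was lost without ILA replicate 2 (adjusted p = 0.0558), under median centring and with GC and length trends removed, and the second under all 3 scalings and without any 1 of vehicle replicates 1 and 3 and the 3 GSK805 libraries (adjusted p 0.0510 to 0.117).

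**Figure D3:**
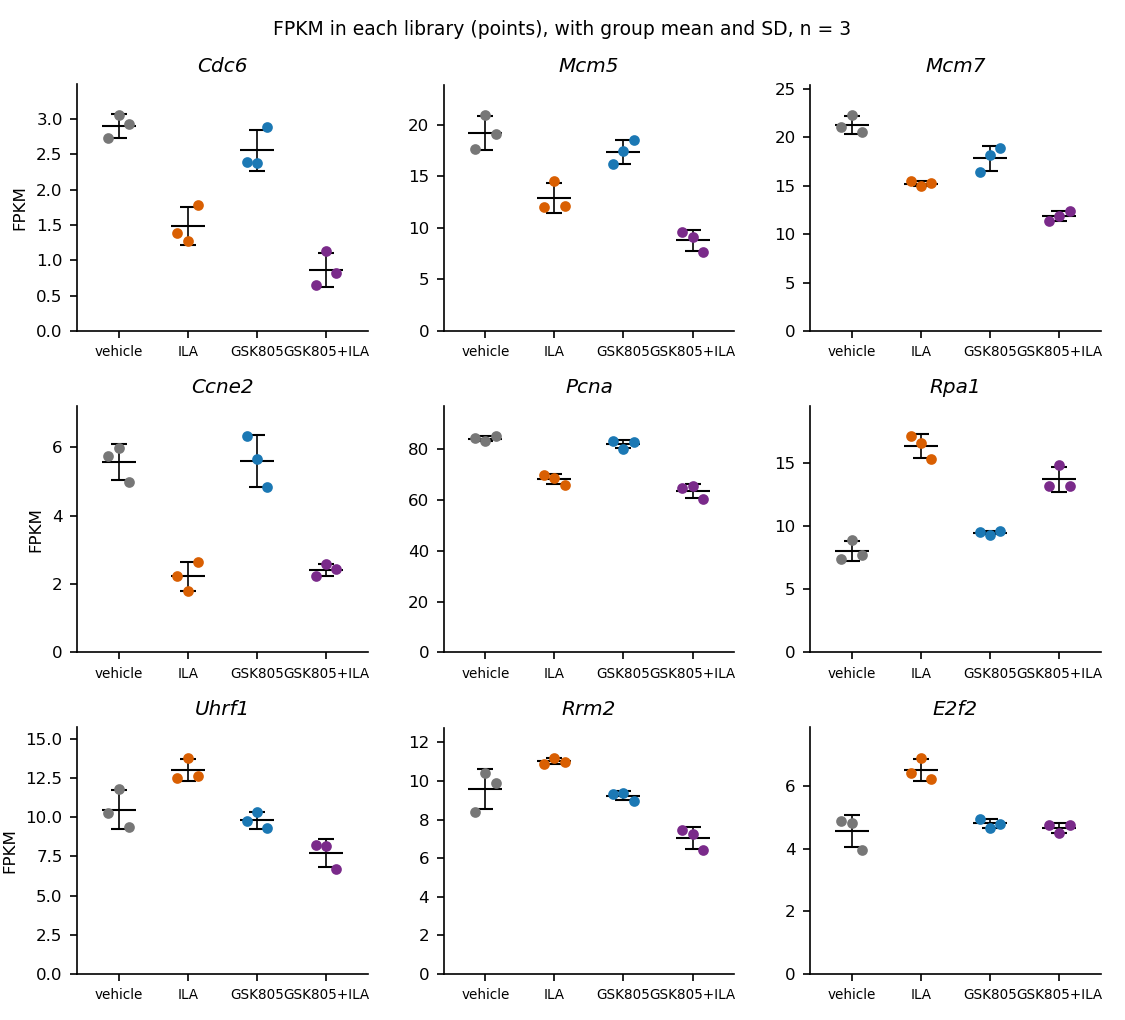
FPKM of 9 genes in each of the 12 libraries (points), with the mean and SD of each group of 3 (black). Cdc6, Mcm5 and Mcm7 were lowest with both compounds, Ccne2 and Pcna were low in both groups with ILA, Rpa1 was high in both groups with ILA, and Uhrf1, Rrm2 and E2f2 were highest with ILA alone.

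The genes that load and activate the helicase included the largest fall from vehicle to the combined group, that of Cdc6. It passed the filter of 1 FPKM only through the other groups, all of them higher. Cdc6, the loader that with Cdt1 places the MCM ring on origins, read 2.73, 3.06 and 2.92 FPKM with vehicle, 1.39, 1.27 and 1.78 with ILA, 2.39, 2.38 and 2.89 with GSK805, and 0.647, 1.12 and 0.822 with both. Every library with ILA was below every library without it, and the combined libraries were below the ILA libraries. Cdc6 fell 2.10-fold with both compounds (log2 difference -1.07, SE 0.11, adjusted p = 1.3e-05) and 1.58-fold with ILA (-0.66, SE 0.11, adjusted p = 0.00044). The pseudocount of 1 shrinks folds at this level, and the ratio of the means, 2.90 ± 0.166 to 0.865 ± 0.241 FPKM (SD, n = 3), was larger. The combined group was lower than ILA alone by 0.41 (adjusted p = 0.0280), a call lost without ILA replicate 1 or 3 or combined replicate 1 or 3 (adjusted p 0.0565 to 0.0971). It was also lost under quantile normalization (adjusted p = 0.0569), with no filter (0.0641) and with only the groups compared (0.109).

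Cdc45, the subunit that turns the loaded ring into a moving helicase, read 4.71, 6.49 and 6.46 FPKM with vehicle, 3.75, 4.12 and 3.85 with ILA, 4.93, 4.89 and 4.96 with GSK805, and 2.91, 2.87 and 3.38 with both. The groups were ordered like those of Cdc6, with vehicle and GSK805 overlapping. It fell 1.69-fold with both (log2 difference -0.76, SE 0.10, adjusted p = 6.6e-05) and 1.39-fold with ILA (-0.48, SE 0.10, adjusted p = 0.00149). Mcm10, which helps start the helicase, fell 1.41-fold with both (adjusted p = 0.00156), and Cdt1 fell 1.19-fold (adjusted p = 0.00879), each with no overlap with vehicle.

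The 4 GINS subunits form 1 complex. Gins1 fell 1.57-fold with both compounds (log2 difference -0.65, SE 0.14, adjusted p = 0.00261), from 1.65 ± 0.430 to 0.677 ± 0.161 FPKM (SD, n = 3). Gins4 fell 1.20-fold (adjusted p = 0.0267), and this did not hold when vehicle 3 or combined 1 was left out (adjusted p 0.106 and 0.105), with no filter (0.0675) or with only the groups compared (0.0556). Gins3 differed by -0.27 and did not pass (adjusted p = 0.0504), but was called lower under each of the 3 scalings, quantile normalization (0.00544), median centring (0.00691) and removal of GC and length trends (0.0191). Gins3 was lower than with GSK805 alone by 0.39 (SE 0.11, adjusted p = 0.0126). Gins2 stayed between 13.3 and 15.8 FPKM in all 12 libraries and passed in no comparison, though with GC and length trends removed it was lower with both than with vehicle (-0.18, adjusted p = 0.0379). Over 67.3% of its exon bases Gins2 overlaps Gse1 on the opposite strand, and as the sources used here do not say how strand was handled, reads of the 2 genes cannot be told apart.

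The clamp and its loader split by subunit. Pcna, the sliding ring that holds polymerases on DNA and the highest of the 41 genes, read 84.2, 83.0 and 84.9 FPKM with vehicle, 83.0, 80.0 and 82.5 with GSK805, 69.6, 68.6 and 65.9 with ILA, and 64.5, 65.3 and 60.4 with both. The 6 libraries with ILA were lower than the 6 without it. Pcna fell 1.23-fold with ILA (log2 difference -0.30, SE 0.04, adjusted p = 2.9e-05) and 1.32-fold with both (-0.40, SE 0.04, adjusted p = 4.0e-06). The 2 groups with ILA differed from each other by -0.10 and did not pass (adjusted p = 0.0817). Its pseudogene Pcna-ps2 reached at most 2.06 FPKM.

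Of the loader subunits, Rfc3 fell with both compounds while Rfc1 and Rfc2 were higher than with vehicle. Rfc3 averaged 3.56 ± 0.520 FPKM with vehicle, 3.34 ± 0.382 with ILA, 2.97 ± 0.188 with GSK805 and 2.03 ± 0.196 with both (SD, n = 3), and fell 1.5-fold with both (log2 difference -0.59, SE 0.10, adjusted p = 0.00044). Rfc1, the large subunit, read 8.29, 8.69 and 8.42 FPKM with vehicle, 10.9, 10.8 and 11.4 with ILA, 10.7, 9.34 and 9.04 with GSK805, and 9.51, 9.37 and 10.2 with both. All 9 treated libraries were above the 3 vehicle libraries. Rfc1 rose 1.27-fold with ILA (0.35, SE 0.06, adjusted p = 0.00045), under every alternative. Its difference with both, 0.17 (adjusted p = 0.0313), and that of Rfc2, 0.32 (adjusted p = 0.0203), were not called under any of the 3 scalings, and were lost without vehicle replicate 1, combined replicate 1 or combined replicate 3 (adjusted p 0.0525 to 0.108), that of Rfc1 also without vehicle replicate 3 (adjusted p = 0.0727). Rfc2 also rose with ILA, by 0.39 (SE 0.10, adjusted p = 0.00645), but not under the 3 scalings (adjusted p 0.0508 to 0.119). Rfc4 was lower with both than with ILA alone (-0.53, SE 0.14, adjusted p = 0.0256), a call lost without ILA replicate 1 or 2 or combined replicate 1 or 3 (adjusted p 0.0704 to 0.0937) or with no filter (0.0703). Over 12.7% of its exon bases Rfc4 overlaps the opposite-strand gene Eif4a2, which reached 138.5 FPKM, so the values of Rfc4 may hold reads of both. Rfc5 passed in no comparison, but under each of the 3 scalings it was called lower with both than with vehicle (adjusted p 0.0103 to 0.0181) and than with GSK805 (adjusted p 0.0165 to 0.0229).

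Of the 7 primase and polymerase genes, 1 was lower with both compounds than with vehicle, and 3 were under each of the 3 scalings and with voom, the others being Pola1 and Pold2. The 1 gene was Pole, the catalytic subunit of the leading-strand polymerase, which read 2.00, 2.00 and 1.73 FPKM with vehicle, 1.54, 1.59 and 1.60 with ILA, 1.72, 1.86 and 1.65 with GSK805, and 1.10, 1.01 and 1.05 with both. The combined libraries were below the other 9. Pole fell 1.42-fold with both (log2 difference -0.50, SE 0.08, adjusted p = 0.00023). Pola1, the catalytic subunit of the priming polymerase, differed with both by -0.26 and did not pass (adjusted p = 0.0628), beside adjusted p 0.00827 to 0.0283 under the scalings and 0.00576 with voom.

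With ILA alone, Pola2, Prim1, Prim2 and Pold1, which prime the strands and extend the lagging strand, were higher than with vehicle by 0.24 to 0.33 (adjusted p 0.00998 to 0.0318). Of these 4, Pola2, Prim2 and Pold1 were called under none of the 3 scalings and Prim1 only with GC and length trends removed. Prim1 was also lost without vehicle replicate 1 or ILA replicate 1 (adjusted p 0.0674 and 0.0720), and Prim2 without vehicle replicates 1 or 3 or any 1 ILA library (adjusted p 0.0616 to 0.0964). Pold2, the accessory subunit that partners Pold1, moved opposite to it. Pold2 read 14.1, 15.5 and 14.9 FPKM with vehicle, 11.5, 10.3 and 11.2 with ILA, 12.8, 13.4 and 14.6 with GSK805, and 10.6, 11.5 and 14.9 with both. The ILA libraries lay below the vehicle libraries, and the third combined library lay among the vehicle libraries. Pold2 fell 1.32-fold with ILA (log2 difference -0.40, SE 0.10, adjusted p = 0.00548) under every alternative, and its difference with both, -0.26, did not pass (adjusted p = 0.0509). Without combined replicate 3 that difference was -0.40 (adjusted p = 0.00110). It was also called under the 3 scalings (adjusted p 0.00406 to 0.0237), with voom (0.0254), with the filter at 5 FPKM (0.0391) and with the replicate block (0.0346).

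Rpa1 rose most of the 41 genes. It encodes the large subunit of RPA, the trimer that coats single-stranded DNA at forks and at sites of damage. Rpa1 read 7.42, 8.90 and 7.74 FPKM with vehicle, 17.1, 16.6 and 15.3 with ILA, 9.53, 9.34 and 9.58 with GSK805, and 13.2, 14.9 and 13.2 with both. No 2 groups overlapped, and the 6 libraries with ILA were the highest. Rpa1 rose 1.93-fold with ILA (log2 difference 0.95, SE 0.07, adjusted p = 5.0e-07) and 1.63-fold with both (0.71, SE 0.07, adjusted p = 7.2e-06), each under every alternative. It was 1.17-fold higher with GSK805 alone (0.22, SE 0.07, adjusted p = 0.0420), a call lost under the 3 scalings and without any 1 of 7 libraries, which were vehicle 1 and 3, ILA 2, GSK805 1, 2 and 3 and combined 3 (adjusted p 0.0511 to 0.125). The combined group was lower than ILA alone by 0.24 (adjusted p = 0.0361), which was lost without any 1 of 5 libraries, ILA 1 and 2, GSK805 2 and combined 1 and 3 (adjusted p 0.05 to 0.119).

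Rpa2, the middle subunit of the same trimer, moved opposite to Rpa1. It read 8.82, 10.7 and 7.97 FPKM with vehicle, 7.08, 7.46 and 6.78 with ILA, 6.75, 8.94 and 7.35 with GSK805, and 5.78, 5.92 and 5.96 with both. The combined libraries were the lowest and the vehicle libraries were above those with ILA. Rpa2 fell 1.47-fold with both (log2 difference -0.55, SE 0.10, adjusted p = 0.00089) and was lower with ILA by 0.32 (SE 0.10, adjusted p = 0.0204), the second call being lost without vehicle replicate 2 or ILA replicate 3 (adjusted p 0.0839 and 0.0630). Against GSK805 alone the combined group was lower by 0.33 (adjusted p = 0.0266), lost without GSK805 replicate 2 or any 1 combined library (adjusted p 0.0552 to 0.105).

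Fen1 and Lig1, the flap nuclease and the ligase that join Okazaki fragments, fell with both compounds by 1.51-fold (log2 difference -0.59, SE 0.10, adjusted p = 0.00037) and 1.41-fold (-0.50, SE 0.09, adjusted p = 0.00079). Fen1 averaged 14.0 ± 1.74 FPKM with vehicle and 8.97 ± 0.970 with both, and Lig1 4.75 ± 0.589 and 3.08 ± 0.416 (SD, n = 3). With ILA alone Fen1 differed by -0.26 (adjusted p = 0.0369), lost without any 1 of the ILA libraries or vehicle replicates 2 or 3 (adjusted p 0.0587 to 0.139), and Lig1 by 0.06 (adjusted p = 0.578). Over 78.8% of its exon bases Fen1 overlaps the opposite-strand gene Gm10143, so its values may hold reads of both.

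Rrm1 and Rrm2 encode the large and small subunits of ribonucleotide reductase, which makes deoxynucleotides, and both fell with the combination. Rrm2 read 8.42, 10.4 and 9.89 FPKM with vehicle, 10.9, 11.2 and 11.003 with ILA, 9.34, 9.39 and 8.98 with GSK805, and 7.48, 7.27 and 6.41 with both. The ILA libraries were the highest, the combined libraries the lowest, and vehicle and GSK805 overlapped. Rrm2 fell 1.31-fold with both against vehicle (log2 difference -0.39, SE 0.07, adjusted p = 0.00086) and was 1.5-fold lower than with ILA alone (-0.58, SE 0.07, adjusted p = 0.00042). Its difference with ILA alone was 0.19 (adjusted p = 0.0409), and that call was lost under each of the 3 scalings and without any 1 of 9 libraries (adjusted p 0.0503 to 0.158), being kept without vehicle 2 or combined 1 or 3. Rrm1 fell 1.28-fold with both (-0.36, SE 0.08, adjusted p = 0.00381). Tyms, thymidylate synthase, did not pass against vehicle (-0.23, adjusted p = 0.0765), was called lower there under the 3 scalings (adjusted p 0.00950 to 0.0180) and with voom (0.0330), and was lower with both than with GSK805 alone (-0.43, SE 0.10, adjusted p = 0.00580).

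Cyclin E2 fell with ILA whether or not GSK805 was present. Ccne2 encodes 1 of the 2 cyclins that activate CDK2 at the G1/S boundary, and read 5.74, 6.00 and 4.98 FPKM with vehicle, 6.33, 5.65 and 4.84 with GSK805, 2.25, 1.80 and 2.65 with ILA, and 2.23, 2.57 and 2.44 with both. The 6 libraries with ILA lay at 2.65 FPKM or below and the 6 without it at 4.84 or above. Ccne2 fell 2.04-fold with ILA (log2 difference -1.03, SE 0.11, adjusted p = 1.2e-05) and 1.92-fold with both (-0.94, SE 0.11, adjusted p = 3.1e-05), and differed with GSK805 alone by 0.00 (SE 0.11, adjusted p = 0.987). Over 17.4% of its exon bases Ccne2 overlaps the opposite-strand gene Ints8, which reached 9.59 FPKM, so the values of Ccne2 may hold reads of both. The other cyclin E gene, Ccne1, ranged from 1.64 to 3.04 FPKM and passed in no comparison, and E2f1, an activating E2F, ranged from 1.90 to 3.12 FPKM and passed in none either.

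E2f2, the other activating E2F of the list, rose with ILA alone. It read 4.90, 4.82 and 3.96 FPKM with vehicle, 6.41, 6.90 and 6.23 with ILA, 4.95, 4.67 and 4.80 with GSK805, and 4.74, 4.49 and 4.75 with both. The 3 ILA libraries were above the other 9, which overlapped. E2f2 rose 1.35-fold with ILA (log2 difference 0.44, SE 0.07, adjusted p = 0.00027) under every alternative, and differed with both compounds by 0.03 (SE 0.07, adjusted p = 0.751).

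Uhrf1, which recruits the maintenance DNA methyltransferase to new DNA, moved in opposite directions with ILA alone and with both compounds. It read 10.3, 11.8 and 9.38 FPKM with vehicle, 12.5, 13.8 and 12.6 with ILA, 9.75, 10.3 and 9.30 with GSK805, and 8.25, 8.18 and 6.68 with both. The ILA libraries were the highest and the combined libraries the lowest. Against vehicle Uhrf1 differed by 0.29 with ILA (SE 0.09, adjusted p = 0.0166) and fell 1.32-fold with both (log2 difference -0.40, SE 0.09, adjusted p = 0.00284). The first call was lost without vehicle replicate 3 or ILA replicate 2 (adjusted p 0.0719 and 0.0622), under median centring and after removal of GC and length trends. Uhrf1 was 1.61-fold lower with both than with ILA alone (-0.69, SE 0.09, adjusted p = 0.00053), the largest difference of the 41 genes in that comparison. The histone chaperone subunits Chaf1a and Chaf1b did not pass against vehicle. With both compounds Chaf1a differed from vehicle by -0.15 (adjusted p = 0.0561), and was called lower under the 3 scalings (adjusted p 0.000238 to 0.00169) and with voom (0.0232). It was called lower with ILA under the 3 scalings too (adjusted p 0.0023 to 0.0195), and Chaf1b was called lower with both under median centring (0.0428) and with GC and length trends removed (0.0303). Chaf1a, which overlaps Ubxn6 on the opposite strand over 52.5% of its exon bases, was lower than with GSK805 alone by 0.16 (adjusted p = 0.0487), a call lost without any 1 of 10 libraries (adjusted p 0.0549 to 0.174) and kept without GSK805 3 or combined 1. That call was also lost with the replicate block (adjusted p = 0.0670), with no filter (0.102) and with only the groups compared (0.106).

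**Figure D4:**
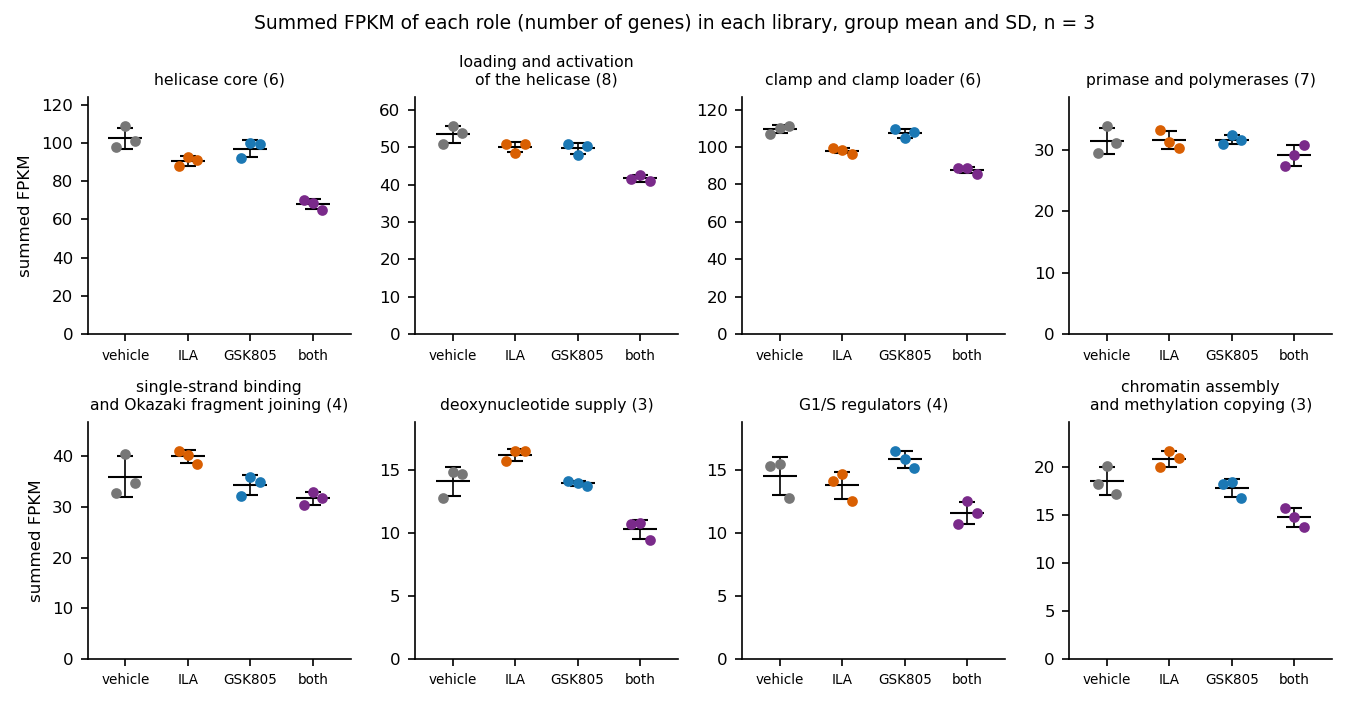
Summed FPKM of the genes of each role in each library (points), with the mean and SD of each group of 3 (black), where "both" is GSK805+ILA. The helicase core summed to 102 FPKM with vehicle, 90.4 with ILA, 97.0 with GSK805 and 67.8 with both, and the primase and polymerases to 31.4, 31.6, 31.6 and 29.0.

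Summed over the 41 genes, vehicle reached 380 ± 17.7 FPKM, ILA 361 ± 3.15, GSK805 368 ± 3.27 and the combination 295 ± 5.49 (SD, n = 3). The combined libraries lay between 289 and 300 FPKM and the other 9 between 358 and 399. As a share of all FPKM the 4 groups stood at 0.118%, 0.112%, 0.120% and 0.0926%. The listed G2/M genes summed to 137 ± 8.31 FPKM with vehicle, 179 ± 7.95 with ILA, 145 ± 5.02 with GSK805 and 109 ± 2.99 with both. Their part in the fall of the 41 genes was not tested.

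The design asks whether the change with ILA was the same in cells given GSK805. The test was the difference of the 2 changes on the log2 scale, GSK805+ILA minus GSK805 less ILA minus vehicle. It was below 0 for 39 of the 41 genes, the exceptions being Pold2 and Ccne2, and for 7722 of the 13511 genes tested. The median was -0.28 beside -0.05 for all genes tested. Under quantile normalization, median centring and removal of GC and length trends it was below 0 for 37, 36 and 37 of the 41. Of all genes, 6646, 6198 and 6538 were then below 0. It passed, downward, for 11 genes (8.7% of all genes) and upward for 0 (5.15% of all genes). At an unadjusted p below 0.05 limma had 21 genes downward and 0 upward, and voom called 18 and 0, counts that were not made over all genes. Without ILA replicate 2 the count was 7, and it was 7 under quantile normalization and under median centring, 6 with no filter and 8 after removal of GC and length trends. Of all the calls of that test in the 13511 genes, 37.2% were upward, and 46.0%, 62.4% and 58.1% under the 3 scalings.

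The 6 genes whose difference was called under every alternative were Uhrf1 (-0.60, SE 0.13, adjusted p = 0.0117), Rrm2 (-0.54, SE 0.10, adjusted p = 0.00739), E2f2 (-0.47, SE 0.10, adjusted p = 0.0122), Rpa1 (-0.46, SE 0.10, adjusted p = 0.0128), Mcm2 (-0.41, SE 0.08, adjusted p = 0.00722) and Mcm6 (-0.41, SE 0.07, adjusted p = 0.00454). These are a maintenance methylation factor, a reductase subunit, an activating E2F, a single-strand binding subunit and 2 subunits of the helicase. Uhrf1, Rrm2, Mcm2 and Mcm6 were higher with ILA than with vehicle in all 3 libraries, and lower with both than with GSK805 in all 3. E2f2 was higher with ILA alone and differed by -0.04 (adjusted p = 0.721) where GSK805 was present. Rpa1 rose with ILA in both settings, by 0.95 without GSK805 and by 0.49 with it (SE 0.07 each).

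Mcm4, Rfc1, Lig1, Rrm1 and Tyms also passed, with differences from -0.35 to -0.51. Their calls were less stable across libraries. Tyms averaged 0.853 FPKM with both compounds, below the filter of 1 FPKM, and was tested only through the other groups, where it was higher. Mcm4 was lost without ILA replicate 2 (adjusted p = 0.0507), and Rfc1 without vehicle replicate 3 or combined replicate 2 (adjusted p 0.0502 and 0.0509). Rrm1 was lost without vehicle 2, ILA 2 or 3, GSK805 1 or 2 or combined 3 (adjusted p 0.0528 to 0.0607). Lig1 and Tyms were lost without any 1 of 10 libraries (adjusted p 0.0525 to 0.103 and 0.0561 to 0.0802), Lig1 being kept without vehicle 2 or combined 2 and Tyms without vehicle 2 or GSK805 2. The replicate block ended the call of Tyms (adjusted p = 0.0534). Lig1 and Tyms were also lost under all 3 scalings (adjusted p 0.0654 to 0.117 and 0.0562 to 0.102), Rfc1 under quantile normalization and median centring (0.0502 and 0.0552), Rrm1 under quantile normalization and after removal of GC and length trends (0.0667 and 0.0583), and Mcm4 under median centring (0.0556). All 5 were lost with no filter (adjusted p 0.0573 to 0.112). Ccne2 and Pcna did not pass (0.08, SE 0.16, adjusted p = 0.769, and -0.06, SE 0.05, adjusted p = 0.460), nor did Cdc6 (-0.28, SE 0.16, adjusted p = 0.287) or Mcm5 (-0.36, SE 0.14, adjusted p = 0.0982).

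**Figure D5:**
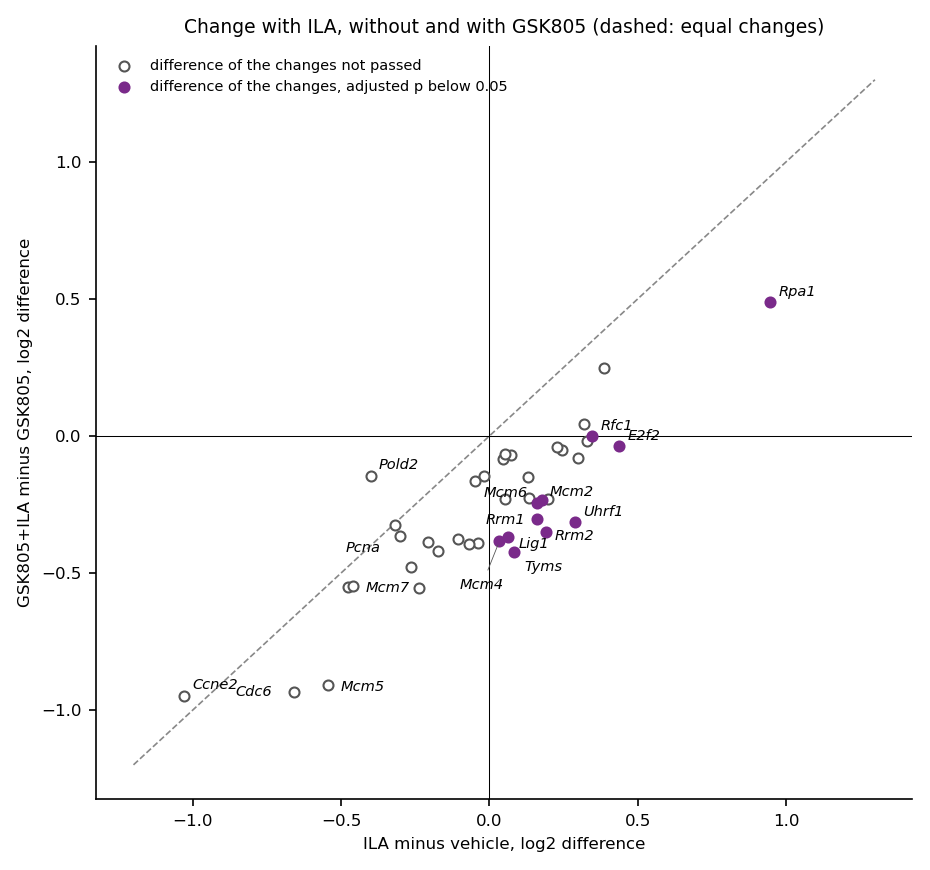
Change with ILA on the scale of log2(FPKM + 1) in cells without GSK805 (horizontal) and with GSK805 (vertical), 1 point for each of the 41 genes, with the dashed line where both changes are equal. The points below the line number 39, and the 11 filled points have an adjusted p below 0.05 for the difference of the 2 changes.

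Sorted by their calls against vehicle, 9 genes fell with ILA and with both compounds: Mcm3, Mcm5, Mcm7, Cdc6, Cdc45, Pcna, Rpa2, Fen1 and Ccne2. Another 9 fell with both but did not pass with ILA: Mcm4, Cdt1, Mcm10, Gins1, Gins4, Rfc3, Pole, Lig1 and Rrm1. Mcm2, Rrm2 and Uhrf1 were called higher with ILA and lower with both, and Rfc1, Rfc2 and Rpa1 higher with each. Mcm6, Pola2, Prim1, Prim2, Pold1 and E2f2 were higher with ILA and did not pass with both, Pold2 fell with ILA only, and 10 genes passed in neither. The sorting moved with the scaling: of those 10, Gins3, Rfc5, Pola1, Tyms and Chaf1a were called lower with both under each of the 3 scalings, Rfc4 and Chaf1b under 2 of them and Gins2 under 1. Of the others, Pold2 was called lower with both under all 3, Mcm6 under median centring (adjusted p = 0.00260) and with GC and length trends removed (0.0188), and E2f2 in the last of these alone (0.0418). Pole was called lower with ILA under all 3 (adjusted p 0.00176 to 0.00455). With no filter, the calls with ILA of Prim2, Rpa2, Fen1 and Rrm2 were lost (adjusted p 0.0522 to 0.0900), as was that of Rfc1 with both (0.0692). The 2 comparisons share the vehicle libraries, and this sorting was not made for all genes.

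Of 66 further listed genes of origin licensing, firing, the fork, nucleotide supply and G1/S control, 58 were tested, and 17 rose and 18 fell with both compounds against vehicle. With ILA the counts were 23 and 12, and with GSK805 10 and 4. In percent of all genes tested, rises and falls were 31.8 and 20.3 with both, 33.9 and 24.0 with ILA, and 15.7 and 7.08 with GSK805. Under quantile normalization, median centring and removal of GC and length trends, these further genes had 13, 12 and 16 rises and 23, 24 and 23 falls with both, and 16, 15 and 20 rises and 16, 21 and 18 falls with ILA. The median of these genes with both was -0.02, beside -0.27 for the 41. Cdkn1a, which encodes the CDK inhibitor p21, fell from 79.6 ± 5.83 FPKM with vehicle to 48.4 ± 2.50 with GSK805, 44.6 ± 1.53 with ILA and 33.0 ± 1.57 with both (SD, n = 3), the last by 2.37-fold (log2 difference -1.24, SE 0.06, adjusted p = 2.9e-08). Rb1, which restrains the E2F factors, rose 2.16-fold with ILA (1.11, SE 0.07, adjusted p = 1.1e-07) and 1.56-fold with both (0.65, SE 0.07, adjusted p = 1.2e-05). Orc2, a subunit of the origin recognition complex, fell with ILA by 0.72 (SE 0.06, adjusted p = 2.4e-06), and Pole3, an accessory subunit of the leading-strand polymerase, by 0.87 (SE 0.08, adjusted p = 4.6e-06). Ccnd3, a D-type cyclin of G1, rose with ILA by 0.81 and with both by 0.67 (SE 0.06 each, adjusted p 6.4e-07 and 4.2e-06). Slbp, which binds the ends of histone mRNAs in S phase, fell with both by 0.69 (SE 0.06, adjusted p = 3.5e-06).

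The G2/M list, genes of mitosis that are on after S phase, is given for comparison. Of its 27 tested genes 12 rose and 0 fell with ILA, 2 rose and 17 fell with both against vehicle, and 0 rose and 24 fell with both against ILA. In percent of all genes tested, rises and falls were 33.9 and 24.0, 31.8 and 20.3, and 9.92 and 8.64 in these 3 comparisons. At an unadjusted p below 0.05 limma had 13 rises and 0 falls with ILA, and voom called 13 and 0, but the rises were 7 with 5 falls under quantile normalization, 7 with 4 under median centring and 9 with 1 with GC and length trends removed. The counts at an unadjusted p and with voom were not made over all genes. Cdc25b, the phosphatase that helps trigger mitosis, rose 2.28-fold with ILA (1.19, SE 0.08, adjusted p = 2.8e-07) and 1.63-fold with both (0.71, SE 0.08, adjusted p = 2.6e-05). Mki67, the proliferation marker Ki-67, was 1.70-fold lower with both than with ILA alone (-0.76, SE 0.06, adjusted p = 3.1e-05), and Cdc20, the activator of the anaphase-promoting complex, 1.83-fold lower (-0.87, SE 0.09, adjusted p = 0.00016). In the test of the difference of the 2 ILA changes, 19 of the 27 passed downward (8.7% of all genes), with a median of -0.62 beside -0.28 for the 41. The lists were not tested against each other.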

How the data were processed

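Gene expression was measured by RNA-seq in 12 libraries, 3 in each of 4 groups. The deposited values are FPKM that the authors computed. The submitters' processing notes list FastQC 0.11.2, Bowtie and the mm10 build. Not given in the sources used here were the Bowtie version, the counting program, its annotation and how strand was handled. Read numbers (17.8 to 23.5 M a library) were recovered from the FPKM with GENCODE vM21 gene lengths on GRCm38, within 0.1 of a whole read.

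The scale of the tests was log2(FPKM + 1), on which folds of low genes are understated. Tests covered the 13511 genes whose mean reached 1 FPKM in any group. In limma 3.58.1 (R 4.3.3), the 4 group means were fitted together, with a trended, robustly moderated variance. The comparisons of 2 groups, 5 in number, and the difference of the ILA changes were contrasts of that fit, with p-values adjusted by the Benjamini-Hochberg method over all genes tested and called below 0.05. The fit was tested on simulated data. Tables and figures were made with Python 3.11.15, pandas 2.3.3, numpy 2.4.6 and matplotlib 3.10.9.

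The 41 genes and the other lists were chosen with earlier results of these data known. All 41 could be named. Of the other lists, the called genes with the 3 largest rises and falls in a comparison could be named. Alternatives were leaving out 1 library at a time, the replicate block, a pseudocount of 0.1, a filter at 5 FPKM or none, voom on recovered reads, median centring, quantile normalization, removal of GC and length trends, a fit of only the groups compared, and a fit without trend and robust moderation.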

Additional observations from a re-analysis of the deposited data

Results flagged for a closer look

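For 11 of the 41 genes, the change with ILA differed between cells with and without GSK805 in limma's test of the difference itself (GSK805+ILA minus GSK805, less ILA minus vehicle). All 11 passed downward, as did 8.7% of all genes tested. The differences on the log2 scale were -0.4118 for Mcm2, -0.4177 for Mcm4 and -0.406 for Mcm6, all subunits of the helicase, and -0.3468 for Rfc1, the large subunit of the clamp loader. They were -0.4577 for Rpa1 and -0.4331 for Lig1, which act on single strands and Okazaki fragments, and -0.4662 for Rrm1, -0.54 for Rrm2 and -0.5092 for Tyms, which supply deoxynucleotides. They were -0.4743 for E2f2 and -0.6024 for Uhrf1. Of the 11, Mcm2, Mcm6, Rpa1, Rrm2, E2f2 and Uhrf1 kept the call under every alternative run.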

How the results depend on the processing

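Of 5274 values of single genes under an alternative, 4931 kept their side of the threshold, 214 lost a call and 128 gained one. In 1 more, a called difference changed sign: Mcm2 with ILA, at -0.03442 with GC and length trends removed. Only the 2246 values of differences called in the main fit could lose a call. Changes of sign were counted only for genes called in the main fit. Differences that were not called also changed sign in places, as for Mcm4 with ILA (0.03, and -0.10 under median centring). The rises with ILA were 12, and 5 under quantile normalization, 3 under median centring and 4 with GC and length trends removed, with a range of 7 to 12 on leaving out 1 library. The rises with GSK805 were 2, and 1 without trend and robust moderation and 0 with only the groups compared, under quantile normalization and median centring, with no filter and with GC and length trends removed, with a range of 0 to 2. The 0 counts came from limma, which had 4 members higher at an unadjusted p below 0.05, and voom called 3, counts that were not made over all genes. The falls with GSK805 were 1, and 2, 3 and 2 under the 3 scalings, with a range of 1 to 2. The rises with both against vehicle were 3, and 1 under each of the 3 scalings, with a range of 1 to 3. The rise against GSK805 was 1, and 2 with voom, with a range of 1 to 2. The falls against ILA were 21, and 13 with the filter at 5 FPKM, which left 25 of the 41 genes to test, with a range of 14 to 23. The interaction falls were 11, and 7 under quantile normalization and median centring, 6 with no filter and 18 with voom, with a range of 7 to 11. Beyond the smaller number of genes tested at 5 FPKM, the cause was not tested.

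Same-numbered libraries did not deviate together: the 18 correlations of their deviations ran from -0.0818 to 0.0785, none over 0.1, and 6 of 12 libraries correlated best with a library of their own number. With the replicate block the counts of rises and falls were 12 and 10 with ILA, 2 and 1 with GSK805, 3 and 22 with both, 1 and 21 against GSK805, 0 and 21 against ILA, and 0 and 10 for the interaction. The block ended the calls of Chaf1a against GSK805 and of Tyms in the interaction, added that of Pold2 with both, and changed no other call of the 41 genes. Depth limits the low genes: Gins1 rested on 19 to 65 reads a library, and its SE with both against vehicle was 0.14, but the SE of Ccne1, with 84 to 170 reads, was 0.15.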
